A study of Drosophila pseudoobscura and Drosophila ananassae and Drosophila yakuba with 13 samples.

Results

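The genes sesB and ATPsyn-beta of Drosophila pseudoobscura act at the last steps by which mitochondria make and deliver ATP. They were the 2 genes, of the 11946 in the authors' deposited table for this species, whose symbols are sesB and ATPsyn-beta. The series compared gene expression in testis and ovary, with the stated aim of identifying genes biased towards 1 sex, by RNA sequencing of single reads of 50 bases. In D. pseudoobscura, 2 testis and 3 ovary libraries were made from wild-type virgin adults aged 6 to 10 days, of stock 14011-0121.94, free of Wolbachia and grown at 20 °C. The gonads were dissected free of their ducts and polyadenylated RNA was selected. In the D. ananassae table of 11576 genes, 0 genes carried either symbol, so these values concern D. pseudoobscura alone. D. yakuba was not analysed here.

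ATP synthase sits in the inner membrane of the mitochondrion and uses the proton gradient built by the respiratory chain to form ATP from ADP and phosphate. The beta subunit, encoded by ATPsyn-beta, carries the catalytic sites of the enzyme. The ADP/ATP carrier, encoded by sesB, exchanges the ATP made in the mitochondrion for ADP from the cytosol. In the Drosophila ovary, mitochondria are produced in large numbers and passed to the egg, and in the testis they fuse and elongate along the growing sperm tail.

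Both genes were expressed at higher levels in ovary than in testis. The log2 fold change of testis over ovary was -5.49 for sesB in the authors' deposited table, a 45.1-fold higher expression in ovary. For ATPsyn-beta it was -2.79 in the authors' deposited table, a 6.89-fold higher expression in ovary. The headers do not give the sign, and a positive fold was taken to mean testis because the title names that tissue first and because genes with known gonad roles point that way. The germline thioredoxin gene dhd of the ovary stood at -17.3 and the testis thioredoxin gene TrxT at 5.89 in the authors' deposited table. The adjusted p was 5.51e-12 for sesB and 6.58e-05 for ATPsyn-beta in the authors' edgeR likelihood-ratio test over all genes of the authors' deposited table. At the threshold used here, an adjusted p under 0.05, 2 of 2 genes were thus called ovary-biased, beside 44.1% of all 11946 genes. Testis-biased genes made up 29.6% of the table. With a Bonferroni correction of the authors' edgeR p-values, which calls 27.4% of all genes ovary-biased, sesB was still called and ATPsyn-beta was not (adjusted p = 0.423).

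The table holds 1 fold and 1 average per gene without columns for single libraries, which leaves their depth unknown and gives no spread between replicates. An approximate standard error was taken as the size of the fold divided by the square root of the likelihood-ratio statistic. It was 0.78 for sesB and 0.67 for ATPsyn-beta on the log2 scale. The approximate 95% interval of the log2 fold change ran from -7.02 to -3.97 for sesB and from -4.11 to -1.47 for ATPsyn-beta. The log2 fold change of sesB minus that of ATPsyn-beta was -2.71. The intervals overlapped between -4.11 and -3.97, and the difference between the genes was not tested, because both folds come from the same libraries.

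These errors say little about the replicates of either gene. The 36 other genes with a fold within 0.1 of that of sesB, and with a rescaled log2 average of at least 5, had likelihood-ratio statistics from 48.4 to 50.7, beside 49.7 for sesB in the authors' deposited table. Around ATPsyn-beta the 104 such genes had values from 15.9 to 18.1, beside 17.1 for ATPsyn-beta in the authors' deposited table. The statistic thus followed the fold almost alone in this range, and the p-value of each gene restates its fold with an error close to that of other genes. They therefore do not measure the spread of either gene between its own libraries. The labels do not say whether the libraries came from separate pools of flies, so the shared error may be technical.

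**Figure D1:**
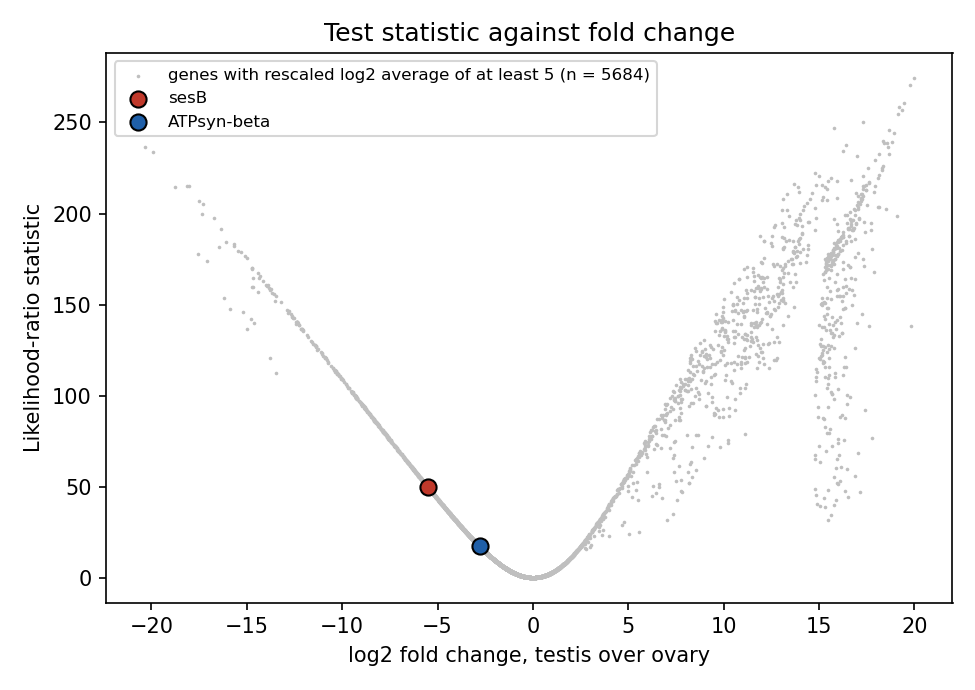
The likelihood-ratio statistic of the authors' deposited table (y axis) is plotted against the log2 fold change of testis over ovary (x axis), 1 grey point per gene with a rescaled log2 average of at least 5, with sesB in red and ATPsyn-beta in blue. Both lie on a narrow curve, at statistics of 49.7 and 17.1.

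The tissues' levels were solved from the fold and the average of each gene, on a scale where the averages of all genes sum to 1000000. The solution takes the average as the mean over the 2 testis and 3 ovary libraries, which the sources used here do not state. For sesB the solved level was 71.5 in testis and 3225 in ovary. For ATPsyn-beta it was 360.2 in testis and 2484 in ovary. Ovary thus held 97.8% of the summed level of both tissues for sesB and 87.3% for ATPsyn-beta. With equal weight for each tissue the solved levels were 85.2 and 3842 for sesB and 414.0 and 2854 for ATPsyn-beta. These levels follow the share of reads and not the transcript length, so no order of expression between genes is drawn from them, and averages are used below only to find genes with a like share of reads. In whole gonads, fewer cells of a type and less RNA per cell cannot be told apart.

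Ovary bias was common among genes with a large share of reads. Of the 120 genes with a rescaled log2 average of at least 10, a class that holds both sesB and ATPsyn-beta, 109 (90.8%) were ovary-biased and 2 testis-biased, and the median fold was -3.97 on the log2 scale, with quartiles of -4.67 and -3.24. The median of all genes was -0.85 and that of the 4204 genes with a rescaled log2 average from 4 to below 6 was -0.58. The average is not independent of the fold: a gene reaches this class through the tissue where it is high, and ovary enters with 3 libraries against 2. At their solved levels, sesB and ATPsyn-beta reached it through ovary. The counts therefore describe the class, and the share of ovary-biased genes in it is partly set by how the class is formed.

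**Figure D2:**
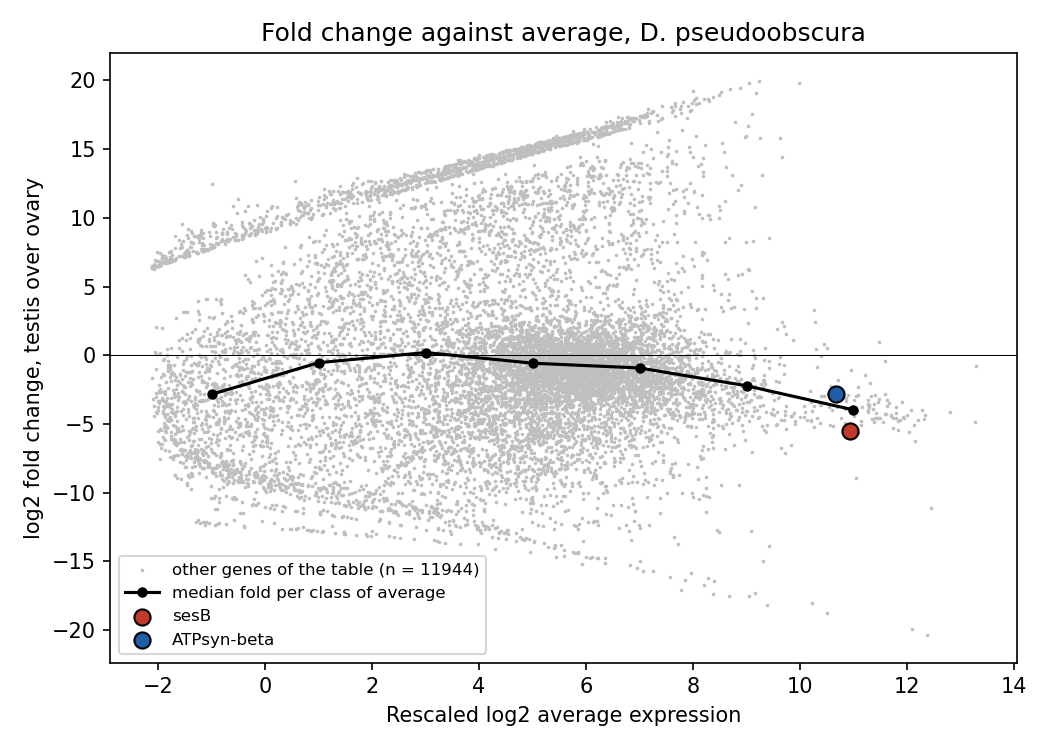
The log2 fold change of testis over ovary (y axis) is plotted against the rescaled log2 average expression (x axis) for each gene of the D. pseudoobscura table, and the black line joins the median fold of 7 classes of average, the outermost drawn at -1 and 11. The line falls to -3.97 in the highest class, with sesB (red) below it and ATPsyn-beta (blue) above it.

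Against genes of like average the carrier and the synthase subunit lay on opposite sides of the median, which the interval of the subunit includes. Of the 104 other genes whose rescaled log2 average was within 1 of that of sesB, 4 had a lower fold than sesB and 100 a higher one. The fold of sesB minus their median of -3.77 was -1.72 on the log2 scale. Of the 111 genes of like average to ATPsyn-beta, 88 had a lower fold and 23 a higher one, and its fold lay 0.99 above their median of -3.77. That median lay inside the approximate 95% interval of ATPsyn-beta, -4.11 to -1.47, and outside that of sesB, -7.02 to -3.97. Among these 111 genes 96 (86.5%) were ovary-biased, and among the 104 around sesB 93 (89.4%). These positions are descriptions, since the average that picks the genes depends on the fold compared, and the window was chosen after the values were seen. How libraries were scaled before the folds were fitted is not given in the sources used here, and its part in the shift of abundant genes was not tested.

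**Figure D3:**
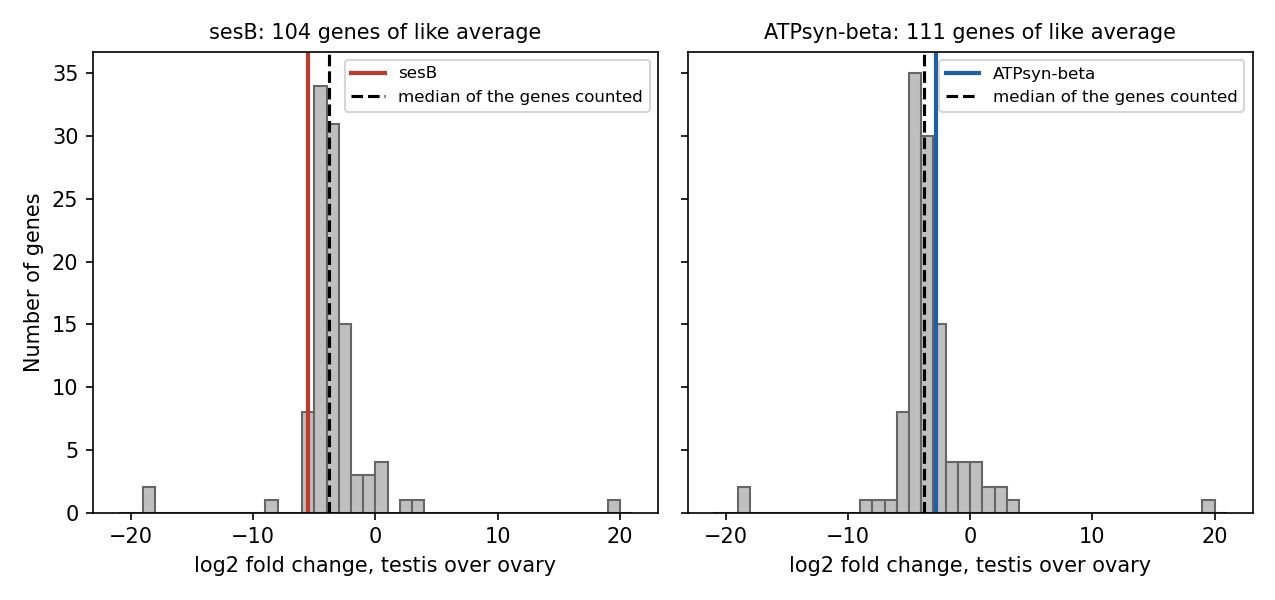
The histograms count genes (y axis) by log2 fold change of testis over ovary (x axis, bars 1 wide) among those with a rescaled log2 average within 1 of sesB (left, 104 genes) or ATPsyn-beta (right, 111 genes). The coloured line marks the named gene and the dashed line the median of the genes counted, -3.77 in both panels: sesB differs from it by -1.72 and ATPsyn-beta by 0.99.

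Other genes of energy metabolism were few under their symbols. Of 11 lists covering ATP synthase, the ADP/ATP carriers, respiratory complexes I to IV, cytochrome c, the citric acid cycle, other mitochondrial carriers, glycolysis and the mitochondrial ribosome, 8 had no gene in the table under a listed symbol. The ATP synthase and carrier lists each held the single gene described above. For scale, the RefSeq annotation UCI_Dpse_MV25 names 14 genes with symbols starting in ATPsyn, of which 1 matched a symbol of the table, and 39 complex I genes with symbols starting in ND-, of which 0 matched. The other genes may be present under GA identifiers, of which 0 of 11686 could be paired with a symbol. Nothing can therefore be said of the synthase or the respiratory chain as a whole.

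In glycolysis, which makes ATP in the cytosol, 3 of the 13 listed genes were measured. Of these 2 were ovary-biased and 0 testis-biased, beside 44.1% and 29.6% of all genes. The list's median log2 fold change was -1.89 against -0.85 for all genes. Genes with a rescaled log2 average from 8 to below 10, the class of Eno and Tpi, had a median of -2.22 and were 62.0% ovary-biased. Gapdh2 lay in the class of at least 10, whose median is given above. Gapdh2, encoding glyceraldehyde-3-phosphate dehydrogenase, had a fold of -4.49 (adjusted p = 3.16e-09, authors' edgeR test and deposited table). Eno, encoding enolase, had a fold of -1.89 (adjusted p = 0.0051, authors' edgeR test and deposited table). Tpi, encoding triosephosphate isomerase, was not called, with a fold of -0.56 (adjusted p = 0.401, authors' edgeR test and deposited table). Enolase lost its call under Bonferroni adjustment, which left 1 of the 3 called. The respiratory chain was represented by Ucrh, named for a hinge protein of complex III and picked after its value was seen, since its symbol was not on the lists. It was not called, with a fold of -0.98 (adjusted p = 0.141, authors' edgeR test and deposited table). The interval of Ucrh ran from -2.20 to 0.23, and that of Tpi from -1.76 to 0.63. Both intervals lay above that of sesB and both overlapped that of ATPsyn-beta, and differences between these genes were not tested.

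The genes of closest pattern were found among the 260 genes of the table that carry more than a bare GA identifier, by the distance in log2 fold change and rescaled log2 average. This likeness rests on 2 values per gene from the same 5 libraries. Nearest to sesB were Gapdh2, at a distance of 1.32, the cyclophilin gene Cyp1 at 1.54, the nucleolar protein gene Nop56 at 1.58, ATPsyn-beta at 2.72 and the ribosomal protein gene RpL32 at 3.06. Nearest to ATPsyn-beta were RpL32 at 0.35, Cyp1 at 1.20, the tropomyosin gene Tm1 at 1.72, Gapdh2 at 1.81 and Eno at 2.07. The pair were not each other's closest genes: ATPsyn-beta was 4th from sesB and sesB 9th from ATPsyn-beta. Nop56, which acts in ribosomal RNA modification, had a fold of -5.60 beside -5.49 for sesB in the authors' deposited table. In the authors' deposited table RpL32 had a fold of -2.45 beside -2.79 for ATPsyn-beta. The 5 named genes with the largest share of reads were Hsp83, sesB, Cyp1, RpL32 and ATPsyn-beta. Of these Hsp83, a chaperone gene, stood at -0.45 and was not called (adjusted p = 0.509 in the authors' edgeR test and deposited table).

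**Figure D4:**
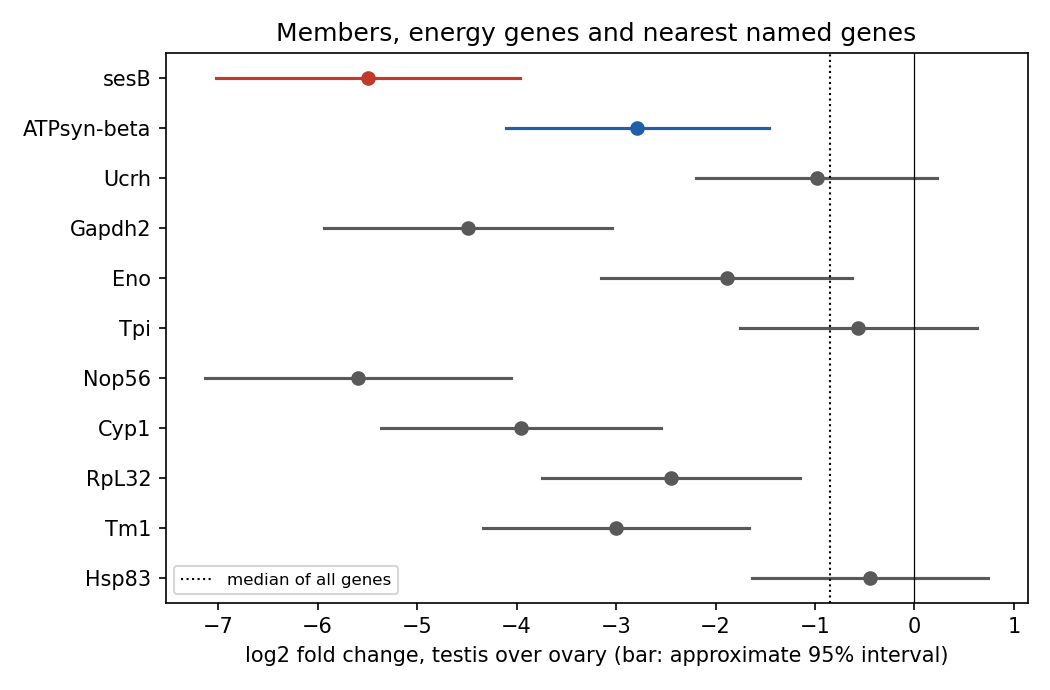
Points give the log2 fold change of testis over ovary (x axis) of sesB, ATPsyn-beta, other genes of energy metabolism, their nearest named genes and Hsp83, bars the approximate 95% interval, the dotted line the median of all genes at -0.85 and the solid line 0. The interval of sesB ends at -3.97 and that of ATPsyn-beta at -1.47, while those of Ucrh, Tpi and Hsp83 include 0.

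Muscle, a tissue rich in mitochondria, also forms sheaths around the gonads. Of 11 listed muscle symbols 5 were in the table (Mlc1, Tm1, Tm2, TpnI and TpnT), and all 5 were ovary-biased, with folds from -9.26 to -3.0 in the authors' deposited table, beside 44.1% of all genes called ovary-biased. Muscle genes outside the list, picked after their values were seen, went in both directions. By the authors' deposited table the troponin genes TpnCIa and TpnCIb were ovary-biased, at -10.6 and -11.3, and TpnCIIIa was called for testis, with a fold of 3.66. The troponin gene TpnCIIIb, at -1.54, and the muscle regulator gene Mef2, at 1.18, were not called in the authors' deposited table. The rescaled log2 average was low for TpnCIIIa, at -0.002, and for TpnCIIIb, at -1.20. The solved level in testis was low for TpnCIa, at 0.049, and for TpnCIb, at 0.0047, so the size of their folds rests on these low values. The listed genes' summed solved level was 98.5 in testis and 1357 in ovary. Most of it came from Tm1, at 96.6 in testis and 772 in ovary, the listed gene with the weakest fold, -3.0. The part of muscle in the ovary bias of sesB and ATPsyn-beta was not tested. Of the 7 ovary germline markers 5 were measured and all 5 were ovary-biased, with a summed solved level of 46.8 in testis and 1658 in ovary. Of the 10 testis germline markers 2 were measured, TrxT and exu2, and both were testis-biased, beside 29.6% of all genes. Their summed level was 446.9 in testis and 3.49 in ovary. The sign of the fold was read partly from TrxT and from the ovary marker dhd, so their directions were taken beforehand and are no result here. In ovary dhd alone gave 950 of the 1658. The 5 measured accessory gland genes, of 6 listed, were testis-biased, with a summed level of 8.81 in testis and 0.0588 in ovary. Their rescaled log2 averages were low, from -0.96 to -0.21, with approximate standard errors from 1.05 to 2.56. After Bonferroni correction 2 of them were still called. That correction, which calls 27.4% of all genes ovary-biased and 22.7% testis-biased, left 4 of the 5 muscle, 4 of the 5 ovary germline and 2 of the 2 testis germline genes called. For fat body 0 of 6 listed symbols were in the table.

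The identity of the reads counted for both genes carries a limit. In the RefSeq annotation UCI_Dpse_MV25 the span of sesB overlaps that of its neighbour Ant2, which encodes another ADP/ATP carrier. Ant2 has no row under its symbol in the table, and how reads of an overlap or of a related copy were counted is not given in the sources used here, so the value of sesB is uncertain to that degree. The genes listed next to sesB on its other side, dod and peng, and the nearest named neighbours of ATPsyn-beta, CaMKII and pan, had no row under their symbols either. That annotation also lists ATPsynbetaL, a related copy of ATPsyn-beta, which likewise has no row under its symbol.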

How the data were processed

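The tools named in the submitters' processing notes are edgeR, HTSeq 0.5.4p3, Bowtie2 2.1.0 and, at version 2.1.0, Cuffdiff and Cufflinks. Not given in the sources used here are the genome build, the annotation, the strand setting, the count filter and the normalization. Each gene has, per the file headers, the authors' log2 fold change and log2 average, a likelihood-ratio score, and its p-value before and after adjustment for the false discovery rate. The deposited p-value equalled the chi-square tail of the score, with 1 degree of freedom, within 0.494%, and the deposited adjusted p the Benjamini-Hochberg value within 0.746%. The deposited average, headed as log CPM, summed on the linear scale to 8090740 times 1000000, and was rescaled to a sum of 1000000.

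The genes and lists were chosen with earlier results of these data known. Lists were matched by symbol only, because the RefSeq table holds no product names. Of the 260 named genes 146 matched a RefSeq symbol, hyphens ignored. The genes described were both genes, the 5 nearest to each, members of the lists, the 5 of highest average and the neighbours; Ucrh, TpnCIa, TpnCIb, TpnCIIIa, TpnCIIIb and Mef2 were added after their values were seen. The level formula recovered simulated levels that were averaged with the assumed weighting. This shows only that the formula was coded correctly and does not test the weighting. The interval was checked on simulated counts. Those counts had libraries of equal size and a known spread set from these data. The check therefore cannot show whether the interval holds the spread of either gene between its own libraries. Computations were run in Python 3.11.15 with pandas 2.3.3, scipy 1.17.1 and numpy 2.4.6, and plots drawn with matplotlib 3.10.9.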

Additional observations from a re-analysis of the deposited data

How the results depend on the processing

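The call of sesB held under Bonferroni (adjusted p = 2.19e-08) and Benjamini-Yekutieli (5.50e-11) adjustment of the authors' edgeR p-values, and with folds centred on the median gene (-4.65) or on the median of genes with a rescaled log2 average of at least 5 (-4.57). ATPsyn-beta, at -2.79 as deposited, lost its call under Bonferroni (adjusted p = 0.423 from the edgeR p-value), which leaves the fold as it is. It kept direction and call with centred folds, at -1.94 and -1.86. Calls with centred folds are not from edgeR. They come from a normal test of the centred fold over its approximate standard error, with Benjamini-Hochberg adjustment. In that test the adjusted p of ATPsyn-beta was 0.0065 and 0.0089. That error does not measure the spread of either gene between its own libraries. Relative to the median of genes of like average, a setting chosen after seeing the data, sesB stood at -1.72 and ATPsyn-beta turned to 0.99. These positions are descriptions and no call is drawn from them, because the average that picks the genes depends on the fold compared. The share of genes of like average below sesB was 3.85%, 5.45% with a window of 0.5 and 8.71% with a window of 2; below ATPsyn-beta it was 79.3%, 76.4% and 62.2%. Solved levels with equal tissue weights were 85.2 in testis and 3842 in ovary for sesB, and 414.0 and 2854 for ATPsyn-beta. Ovary-biased genes numbered 5269, 3279 under Bonferroni and 2464 among genes with an average of at least 5, and testis-biased genes 3540 and 1373 among the latter; fewer genes are tested there. Glycolysis calls fell from 2 to 1 under Bonferroni. No paired analysis was possible because the tables hold no values per library, and leaving out replicates was not run for the same reason. Depth per library is unknown, so no counting interval was given.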
